A study of Schizosaccharomyces pombe with 16 samples.

Results

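The response of *S. pombe* cells without Scr1 to sucrose was measured in 8 of the 16 RNA-seq libraries of the series, which are all the *scr1* mutant libraries. Of these, 4 came from cells moved to YES medium with 3% sucrose and 4 from cells of the same strains moved to YES with 3% glucose. Each of 4 pre-cultures grown in 3% glucose was washed and divided between the media, where cells stayed for 4 h at 32 °C, so that each gave a pair of libraries. Pairs 1 and 2 were replicates 1 and 2 of the *scr1*::*ura4*+ disruption, an h- strain that also carries ura4-d18, leu1-32 and ade6-m216. Pairs 3 and 4 were replicates 1 and 2 of the *scr1* deletion with a kanMX6+ cassette (*scr1*Δ), each a strain of its own with no other allele in its label. Wild type h- cells grown in the same way, with 2 libraries in each medium, were set beside them.

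Fission yeast secretes an invertase, Inv1, that splits sucrose outside the cell into glucose and fructose, which then enter through hexose transporters of the Ght family. Scr1 is a zinc finger repressor related to Mig1 of *S. cerevisiae* and CreA of *A. nidulans*, and it holds genes such as *inv1* at low levels while glucose is plentiful. The comparison asks which parts of the response to sucrose occur when this repressor is missing.

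Total counts ran from 14375950 to 18607823 in the mutant libraries. Levels are in CPM, a feature's counts relative to the size of its library after scaling by the trimmed mean of M-values (TMM), and mutant values are given in the order of pairs 1 to 4. The annotated *scr1* feature gave 88.8 to 125 CPM in the mutants and 20.8 to 35.7 CPM in wild type, but it extends beyond the coding sequence and so does not check the genotype. Pair 1 came from an unstranded library preparation and pairs 2 to 4 from stranded ones, with both members of a pair prepared alike. Of the wild type pairs, pair 1 was unstranded and pair 2 stranded. Ribosomal RNA features took 0.479% to 0.938% of the counts in the mutant glucose libraries and 1.14% to 2.24% in the mutant sucrose libraries, with a higher share in sucrose in all 4 pairs.

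Without a term for the shared pre-culture, no change was called. In the 16-library edgeR fit with library batch as a covariate, 0 of 5134 protein-coding genes were higher in sucrose and 0 were lower (0.0% in each direction) at an adjusted p under 0.05 and more than 2-fold, with 66 at an unadjusted p under 0.05. DESeq2 with batch also called 0, with 67 at an unadjusted p under 0.05. The members of each pair deviated together from their group means, with correlations across features of 0.865 to 0.985. Each disruption pair was the only mutant pair in its library batch, so its correlation cannot tell a shared pre-culture from a shared batch. The deletion pairs shared a batch but not a strain. Their libraries correlated at 0.874 and 0.865 within pairs and at 0.777 and 0.789 between pairs. Because each pre-culture was split between the media, a term for each pre-culture, called the replicate block here, was added. This fit used the 12 glucose and sucrose libraries of mutants and wild type. With the replicate block, 6 of 5118 protein-coding genes were higher (0.117%) and 6 were lower (0.117%), with 357 at an unadjusted p under 0.05. With no fold minimum, 12 were higher (0.234%) and 21 were lower (0.41%). Below, "rose" and "fell" stand for an adjusted p under 0.05 in edgeR's replicate block fit, and each change is a log2 fold change, sucrose over glucose, with its standard error from that fit. In the 16-library fit each of these 12 genes had an adjusted p of 1.

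Of the 6 genes that rose more than 2-fold, *fip1*, *fio1* and *frp2* act in reductive iron uptake and *shu1* encodes a cell surface protein that takes up heme. The 6 that fell included *ctt1* (catalase), *gst2* (a glutathione S-transferase), *ctr4* (a subunit of the copper transporter) and *gld1* (glycerol dehydrogenase). No gene of sucrose hydrolysis or hexose uptake rose or fell. The sucrose and glucose groups did not overlap for *fio1*, *fip1*, SPBPB2B2.06c, *ctt1* and *gld1*. Over all protein-coding genes tested, every sucrose library lay above every glucose library for 0.254% and below for 0.352%.

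**Figure D1:**
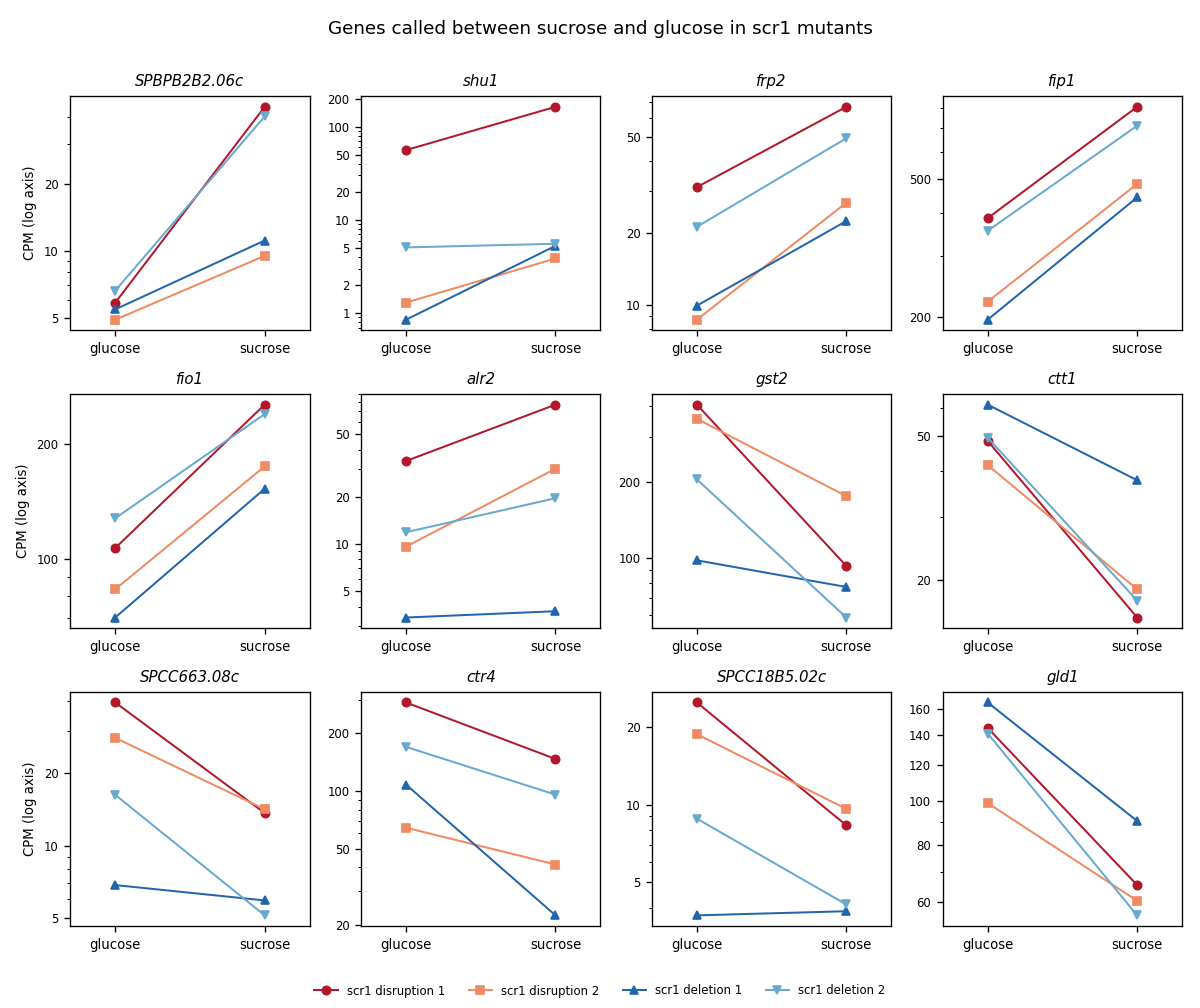
Levels in CPM (log axis) of the 12 protein-coding genes called between sucrose and glucose with the replicate block, each line joining the 2 libraries of 1 pre-culture of *scr1* mutant cells. All 4 lines rise for the 6 genes that were higher, and all 4 fall for the others except that of *scr1*Δ replicate 1 for SPCC18B5.02c (3.73 and 3.87 CPM).

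In fission yeast the GATA-type repressor Fep1 holds iron uptake genes down when iron is sufficient. When iron is scarce, Php4 joins the CCAAT-binding complex and represses genes for proteins that use iron. Stretches upstream of genes of iron uptake, iron storage and iron use are shown because the results turn on these genes. Positions of the stretches are those of the ASM294v3 assembly and gene starts those of its RefSeq annotation. Gene positions elsewhere are those of the deposited table, on ASM294v2. By those positions *frp1*, on the minus strand, starts at II:162497 rather than at 162392. The 3 words marked for *frp1* therefore lie inside the counted gene. The capitals in the first set mark GATA with A or T on each side of it, on either strand.
fio1 (chrI:4234772-4235071, plus strand): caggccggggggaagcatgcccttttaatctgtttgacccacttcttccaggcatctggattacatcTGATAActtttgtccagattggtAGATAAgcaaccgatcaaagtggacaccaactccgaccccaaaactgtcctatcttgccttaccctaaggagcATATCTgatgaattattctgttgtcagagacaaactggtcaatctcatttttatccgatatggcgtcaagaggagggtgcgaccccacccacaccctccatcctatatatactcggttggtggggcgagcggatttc
shu1 (chrI:86389-86438, minus strand): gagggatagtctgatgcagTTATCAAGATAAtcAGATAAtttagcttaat
frp2 (chrII:666945-666994, plus strand): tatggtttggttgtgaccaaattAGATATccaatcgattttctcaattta
frp1 (chrII:162453-162502, minus strand): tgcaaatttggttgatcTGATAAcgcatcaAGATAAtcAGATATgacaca
The *fio1* stretch is nearly the whole interval of 303 bases between *fio1* and its divergent neighbour *fip1*, so the 3 words are upstream of both genes. At least 1 such word lies in the 300 bases upstream of 69.4% of the 5112 protein-coding genes scanned, and none lies there for *sib2* or *str1*. In the second set the capitals mark CCAAT, which 41.0% of the same windows hold on either strand.
sdh2 (chrI:1895341-1895390, plus strand): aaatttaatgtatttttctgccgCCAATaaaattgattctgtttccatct
pcl1 (chrII:165346-165395, minus strand): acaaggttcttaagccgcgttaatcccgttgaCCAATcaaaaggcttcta
aco1 (chrI:3051524-3051573, minus strand): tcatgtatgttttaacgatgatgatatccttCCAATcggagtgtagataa
*cit1*, which also fell, has no CCAAT in its window. The words do not divide the genes by direction. CCAAT also occurs 1 time in each of the windows of *fip1*, *fio1* and *frp2*, and GATA words occur 4 times in that of *aco1* and 2 times in that of *pcl1*. These matches describe the letters in the windows and are no test of binding.

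*fio1* (I:4235080-4237874), for the multicopper ferroxidase, stood at 107, 83.5, 70.4 and 128 CPM with glucose and 254, 175, 153 and 240 CPM with sucrose. Every sucrose library was above every glucose library. It rose by 1.09 on the log2 scale (SE 0.11, adjusted p = 0.003), and it alone of the 12 genes was called with each mutant pair left out in turn. *fip1* (I:4232998-4234760), for the permease that works with the ferroxidase, stood at 386, 222, 197 and 355 CPM with glucose and 807, 484, 443 and 712 CPM with sucrose. The groups did not overlap, and it rose by 1.09 on the log2 scale (SE 0.16, adjusted p = 0.019). Its change was at most 1.17 in any pair, and with a mutant pair left out the adjusted p was above 0.05 in 3 of 4 fits, up to 0.064.

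*frp2*, for a ferric reductase, read 31, 8.71, 9.96 and 21.2 CPM with glucose and 66.9, 26.7, 22.4 and 49.5 CPM with sucrose. Pairs 1 and 4 were high in both media, so the groups overlapped although each pair was higher in sucrose. It rose by 1.25 on the log2 scale (SE 0.18, adjusted p = 0.019), with an adjusted p of up to 0.064 when a mutant pair was left out. *shu1* read 56, 1.3, 0.852 and 5.07 CPM with glucose and 163, 3.86, 5.27 and 5.55 CPM with sucrose. Pair 1 lay far above the other pairs in both media, and pair 4 hardly changed. It rose by 1.36 on the log2 scale (SE 0.26, adjusted p = 0.047), but not with DESeq2 and the replicate block (adjusted p = 0.66) and, among the fits without a mutant pair, only in that without pair 4.

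Of the 11 genes of the iron uptake list, 3 rose more than 2-fold, *sib2* rose by less, and none fell. Over all protein-coding genes tested, 0.117% rose more than 2-fold. The median change of the list was 0.75, against -0.01 over all protein-coding genes tested. All 4 pairs were higher in sucrose for 9 of the 11, a pattern that 7.33% of protein-coding genes showed. *sib2*, for the ornithine monooxygenase that starts siderophore synthesis, stood at 158, 91.5, 84.3 and 122 CPM with glucose and 302, 134, 152 and 189 CPM with sucrose and rose by 0.75 on the log2 scale (SE 0.11, adjusted p = 0.019). *sib1*, for the ferrichrome synthetase, gave 0.39 ± 0.08 and missed the threshold (adjusted p = 0.069).

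*frp1*, for the other ferric reductase of the list, read 284, 96.8, 139 and 261 CPM with glucose and 574, 247, 246 and 467 CPM with sucrose. Its changes of 1.01, 1.35, 0.83 and 0.84 in the 4 pairs missed the threshold narrowly (adjusted p = 0.059). *str3*, for a siderophore transporter, gave 1.01, 2.55, 1.28 and 0.41 in the 4 pairs, and its 1.27 ± 0.29 missed the threshold (adjusted p = 0.1). The siderophore transporter genes *str1* and *str2* gave 0.40 ± 0.12 and 0.13 ± 0.07. The regulator genes had small values of opposite sign, 0.36 ± 0.10 for *php4* (adjusted p = 0.2) and -0.28 ± 0.08 for *fep1* (adjusted p = 0.26). In edgeR's replicate block fit of the 8 mutant libraries without wild type, the adjusted p was 0.00087 for *frp1* and 0.019 for *php4*. It stayed above 0.05 there for *str3* (0.059), *sib1* (0.068) and *fep1* (0.13).

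Further genes of iron transport, outside the list, were named after their values were seen. *pcl1* (II:163534-165317), the neighbour of *frp1* (II:160357-162497) on chromosome II, encodes a vacuolar iron transporter and averaged 177 ± 50.3 CPM (SD, n = 4) in glucose and 104 ± 49.3 CPM in sucrose, with changes of -1.16, -0.52, -0.72 and -1.03 in the 4 pairs. It was lower in each pair, with overlapping groups, and fell by 0.85 on the log2 scale (SE 0.15, adjusted p = 0.034). *fet4*, for an iron and zinc transporter, stood at 11.8, 7.99, 12.1 and 10.6 CPM with glucose and 7.88, 3.86, 7.07 and 4.89 CPM with sucrose. Every sucrose library lay below every glucose library, and it fell by 0.85 on the log2 scale (SE 0.12, adjusted p = 0.019). *mmt1*, for a mitochondrial iron transporter, moved the other way, from 40.8 to 55.8 CPM in glucose to 55.9 to 73.7 CPM in sucrose. The groups were separate by a narrow margin, and it rose by 0.43 on the log2 scale (SE 0.07, adjusted p = 0.023).

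In the TCA cycle list 3 of 16 genes fell, each by less than 2-fold, and none rose, while 0.41% of all protein-coding genes tested fell. *sdh2*, for the iron-sulfur subunit of succinate dehydrogenase, read 178, 216, 340 and 238 CPM with glucose and 75.8, 147, 246 and 145 CPM with sucrose. Each pair was lower in sucrose, the groups overlapped, and it fell by 0.74 on the log2 scale (SE 0.13, adjusted p = 0.03). *aco1*, for the iron-sulfur enzyme aconitase, stood at 497, 632, 867 and 753 CPM with glucose and 310, 481, 707 and 573 CPM with sucrose and fell by 0.44 on the log2 scale (SE 0.08, adjusted p = 0.034). *cit1*, for citrate synthase, an enzyme without an iron-sulfur cluster, fell by 0.33 on the log2 scale (SE 0.06, adjusted p = 0.034).

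The succinate dehydrogenase genes *sdh1* and *sdh3* gave -0.47 ± 0.10 and -0.48 ± 0.12 and missed the threshold (adjusted p = 0.089 and 0.16). In the replicate block fit of the 8 mutant libraries without wild type, *sdh1* had an adjusted p of 0.043 by edgeR. All 4 pairs were lower in sucrose for 10 of the 16 genes, against 10.7% of protein-coding genes, and the median of the list was -0.14. In the list of nuclear genes of the respiratory chain and ATP synthase 0 of 31 were called by edgeR with the block, with 5 at an unadjusted p under 0.05 and a median of 0.06, and the difference between the lists was not tested. The cytochrome c gene *cyc1* stood at 687, 1133, 1204 and 1062 CPM with glucose and 401, 1028, 1123 and 914 CPM with sucrose, and its -0.31 ± 0.12 was not called (adjusted p = 0.51).

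**Figure D2:**
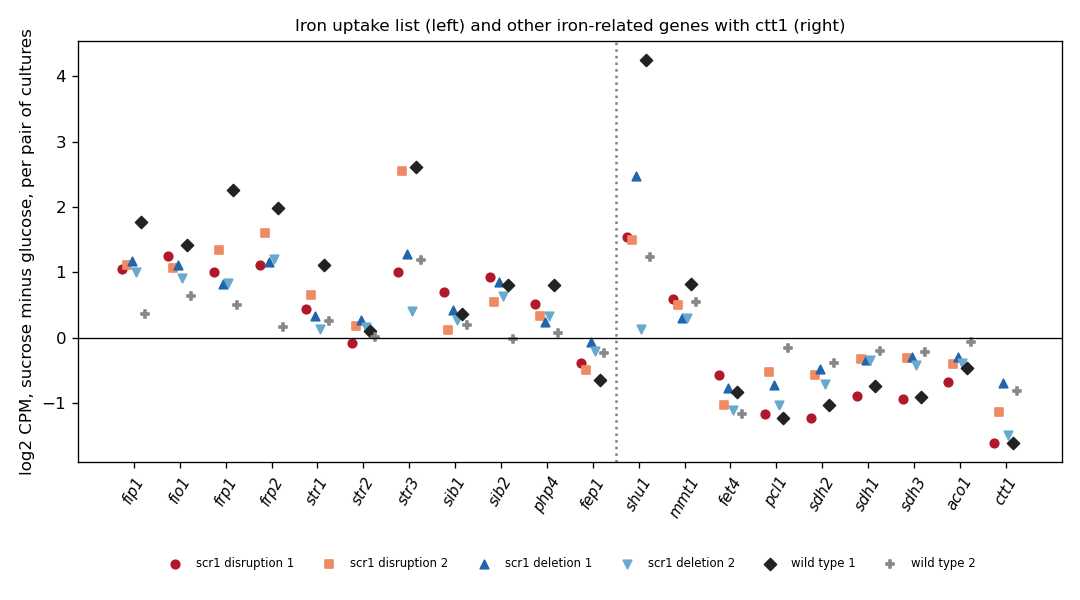
Difference in log2 CPM between the sucrose and the glucose library of each pre-culture for the 11 genes of the iron uptake list (left of the dotted line) and 9 further genes (right), with 1 point for each of the 4 *scr1* mutant pairs and the 2 wild type pairs. *fip1* and *fio1* lie between 0.91 and 1.25 in the mutants, and *fet4*, *pcl1*, *aco1*, *ctt1* and the *sdh* genes lie below 0 in every pair.

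In the 20-gene stress response list 3 genes fell and none rose, while 0.41% of all protein-coding genes tested fell. *ctt1*, for catalase, read 48.5, 41.6, 61.1 and 49.5 CPM with glucose and 15.8, 18.9, 37.8 and 17.6 CPM with sucrose. No sucrose library reached the lowest glucose library, and it fell by 1.22 on the log2 scale (SE 0.16, adjusted p = 0.019). Without *scr1*Δ replicate 2 its adjusted p was 0.053. *gst2* stood at 404, 355, 98.3 and 205 CPM with glucose and 93.4, 176, 77.2 and 58.5 CPM with sucrose. Pair 3 was lowest in glucose and changed least, and *gst2* fell by 1.33 on the log2 scale (SE 0.24, adjusted p = 0.034), with an adjusted p of up to 0.16 when a mutant pair was left out.

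*obr1*, for a quinone reductase, stood at 3260, 3265, 1277 and 2293 CPM with glucose and 1448, 1684, 1037 and 1027 CPM with sucrose and fell by 0.90 on the log2 scale (SE 0.13, adjusted p = 0.019). The median of the list was -0.09. The chaperone genes of the list were not called, with *hsp9* at -0.09 ± 0.09, *hsp90* at -0.01 ± 0.07 and *ssa1* at 0.08 ± 0.12. Other genes of peroxide and thioredoxin metabolism were not called either, with the glutathione peroxidase gene *gpx1* at -0.05 ± 0.07, the sulfiredoxin gene *srx1* at 0.17 ± 0.12, the thioredoxin reductase gene *trr1* at 0.04 ± 0.05 and the thioredoxin gene *trx2* at -0.22 ± 0.11.

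Of the other genes that fell more than 2-fold, *ctr4* (III:818302-819361) read 290, 64.3, 108 and 170 CPM with glucose and 147, 41.3, 22.4 and 95.7 CPM with sucrose. The groups overlapped widely, and it fell by 1.15 on the log2 scale (SE 0.22, adjusted p = 0.043). It was not called in any of the 4 fits that left out a mutant pair. SPCC663.08c, annotated as a short chain dehydrogenase, stood at 39.4, 28.1, 6.88 and 16.3 CPM with glucose and 13.7, 14.2, 5.94 and 5.15 CPM with sucrose and fell by 1.17 on the log2 scale (SE 0.18, adjusted p = 0.019). SPCC18B5.02c stood at 24.8, 18.7, 3.73 and 8.82 CPM with glucose and 8.31, 9.62, 3.87 and 4.11 CPM with sucrose. It was lower in 3 of 4 pairs, close to level in pair 3, and fell by 1.04 on the log2 scale (SE 0.19, adjusted p = 0.035). Both genes, like *gst2*, were called in only 1 of the 4 fits without a mutant pair, that without pair 3.

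*gld1* (I:2174641-2177050) encodes the enzyme that oxidises glycerol to dihydroxyacetone, and it was the gene of carbon metabolism with the largest fall. It stood at 145, 99.1, 165 and 141 CPM with glucose and 65.4, 60.4, 90.5 and 56.1 CPM with sucrose. The groups did not overlap, and it fell by 1.02 on the log2 scale (SE 0.10, adjusted p = 0.003). Its adjusted p was at most 0.02 with any mutant pair left out, although the change was under 2-fold in 2 of these fits. In wild type it was low in both media, at 4.54 and 2.12 CPM in glucose against 3.53 and 3.13 CPM in sucrose, and the difference between the responses, -1.01 ± 0.30, was not called (adjusted p = 0.45).

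No other gene of the 7-gene glycerol use list rose or fell, and its median was -0.07. *dak1*, for the dihydroxyacetone kinase that acts after Gld1, gave -0.07 ± 0.08. *gut2*, for the mitochondrial glycerol-3-phosphate dehydrogenase, gave -0.16 ± 0.12.

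The remaining genes that rose more than 2-fold were SPBPB2B2.06c, annotated as a phosphoprotein phosphatase, and *alr2*, for an alanine racemase. SPBPB2B2.06c (II:4469018-4471207) stood at 5.83, 4.89, 5.44 and 6.6 CPM with glucose and 44.3, 9.47, 11.1 and 40.1 CPM with sucrose. Levels were even in glucose and high in pairs 1 and 4 in sucrose, with no overlap, and it rose by 2.05 on the log2 scale (SE 0.35, adjusted p = 0.03). *alr2* stood at 33.8, 9.64, 3.41 and 11.9 CPM with glucose and 77.2, 30.2, 3.74 and 19.6 CPM with sucrose. Pair 3 hardly moved, and *alr2* rose by 1.08 on the log2 scale (SE 0.17, adjusted p = 0.019), with a call in the fit without pair 3 and in no other fit that left out a mutant pair.

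The invertase and high-affinity hexose transporter genes were at high levels in both media. *inv1* (III:1723393-1726164) stood at 2388, 3024, 1834 and 2042 CPM with glucose and 1976, 2603, 2406 and 2279 CPM with sucrose. It was higher in sucrose in pairs 3 and 4 and lower in pairs 1 and 2, with a change of 0.01 ± 0.15 (adjusted p = 0.99). In wild type *inv1* read 26.2 and 4.3 CPM in glucose against 23.8 and 10.7 CPM in sucrose, and the difference between responses, -0.36 ± 0.31, was not called (adjusted p = 0.98).

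Of the 7 genes of the sucrose and alpha-glucoside list, 0 were called and 0 had an unadjusted p under 0.05 by edgeR with the block. Their changes ran from -0.15 to 0.13, with a median of 0.04. *sut1*, for a sucrose and maltose symporter of the plasma membrane, gave 0.13 ± 0.06, *inv2*, for a second beta-fructofuranosidase, 0.10 ± 0.06, and the maltase gene *mal1* 0.04 ± 0.06. The alpha-glucosidase genes *gto1* and *gto2* gave 0.07 ± 0.06 and -0.00 ± 0.11. *agl1*, another of these, moved by 1.03, -0.94, -0.75 and 0.13 in the 4 pairs, so its mean of -0.15 ± 0.25 covers changes in both directions.

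*ght5* (III:212160-214376), for a high-affinity glucose and fructose symporter, stood at 6718, 6265, 6819 and 6841 CPM with glucose and 6444, 5995, 7248 and 7760 CPM with sucrose. Its change was 0.04 ± 0.06 (adjusted p = 0.94). In wild type it stood at 302 and 194 CPM in glucose against 1094 and 800 CPM in sucrose, a rise of 1.95 ± 0.09 (adjusted p = 3.1e-06). Each mutant library, in either medium, lay above both wild type sucrose libraries. The difference between the responses was -1.91 ± 0.11 with the replicate block (adjusted p = 2.4e-05), while the 16-library fit did not call it (adjusted p = 1).

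*ght3* (I:82746-84786), for a gluconate symporter, had the same order of levels. It stood at 91.1, 111, 110 and 96.2 CPM with glucose and 106, 107, 118 and 97.6 CPM with sucrose in the mutants and at 5.36 and 4.42 CPM in glucose against 16 and 17.7 CPM in sucrose in wild type. The mutants gave 0.07 ± 0.06 and wild type 1.77 ± 0.13, and the difference of -1.70 ± 0.14 was called in both fits (adjusted p = 0.00065 with the block and 0.023 without it), though in only 1 of 12 refits of the 16-library design with a library left out. For *ght1*, a high-affinity glucose symporter gene, the mutants gave 0.02 ± 0.08 and wild type 0.76 ± 0.12, with a difference of -0.74 ± 0.15 that was not called (adjusted p = 0.15).

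*ght2*, *ght4* and *ght8*, for further hexose transporters, gave 0.01 ± 0.08, -0.11 ± 0.07 and 0.07 ± 0.06 in the mutants. *ght6* stood at 79.7, 35.1, 37.5 and 74.8 CPM with glucose and 83, 127, 42.8 and 96.5 CPM with sucrose, and its 0.60 ± 0.23 (adjusted p = 0.51) came largely from pair 2. *ght7* was between 0.648 and 1.31 CPM in glucose and between 0.421 and 1.6 CPM in sucrose. In all, 0 of 8 hexose transporter genes were called in the mutants by edgeR with the block, with 1 at an unadjusted p under 0.05, and 3 rose in wild type.

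**Figure D3:**
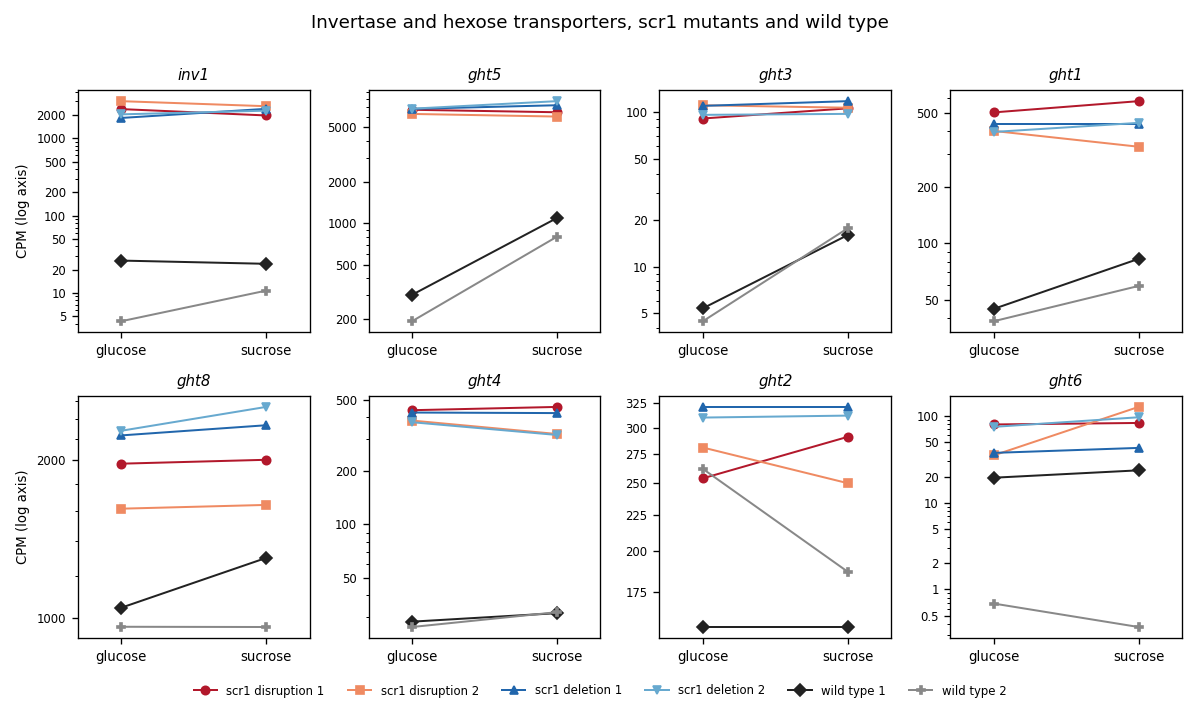
Levels in CPM (log axis) of *inv1* and 7 hexose transporter genes in the 4 *scr1* mutant pairs and the 2 wild type pairs, each line joining the glucose and sucrose libraries of 1 pre-culture. The *ght5* lines rise in wild type, from 302 to 1094 CPM and from 194 to 800 CPM, and stay between 5995 and 7760 CPM in the mutants.

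Scr1-like factors bind GC-rich words, and words of the CreA type (C or G, then C or T, then GG, then A or G, then G, on either strand) were counted in the windows of 300 bases. At least 1 occurs in 16.3% of windows. The *fip1* and *fio1* windows, which overlap, hold 3 each, those of *inv1* and *ght3* 1 each, and those of *ght5* and *gld1* 0. The windows follow RefSeq gene starts. By the deposited positions *gld1* reaches to I:2177050, so its whole window (I:2176573-2176872) lies inside the counted gene. Its 0 therefore does not describe sequence upstream of the counted gene. The windows of *inv1*, *ght3* and *ght5* run partly into their counted genes. The windows are not the study's ChIP-seq peaks, by which it counted *inv1*, *ght5* and *gld1* among the genes bound by Scr1. These counts are no test of binding.

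The responses of mutants and wild type, which share no library, were compared directly. A difference of more than 2-fold was called for 1 protein-coding gene in the 16-library fit (0.0195%), *ght3*, and for 4 with the replicate block (0.0782%), *ght3*, *ght5*, *urg1* and *urg2*. All 4 were called with each mutant pair left out in turn. *urg1* and *urg2* are uracil-regulated genes, annotated as a GTP cyclohydrolase II and a putative uracil phosphoribosyltransferase.

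*urg1* stood at 340, 42.4, 78.4 and 24.2 CPM with glucose and 327, 35.9, 87.3 and 24.7 CPM with sucrose in the mutants. Levels differed between pairs and hardly between media (-0.02 ± 0.11). In wild type it stood at 111 and 143 CPM in glucose against 40.5 and 29.5 CPM in sucrose, and the difference between the responses was 1.83 ± 0.19 (adjusted p = 0.0025). *urg2* stood at 270, 54.5, 93.6 and 25.1 CPM with glucose and 248, 37.3, 97.2 and 24.3 CPM with sucrose in the mutants and at 164 and 227 CPM in glucose against 53.1 and 43.8 CPM in sucrose in wild type. The mutants gave -0.16 ± 0.12, with a difference from wild type of 1.84 ± 0.21 (adjusted p = 0.0032).

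For the 12 genes called in the mutants, wild type had a change of the same sign each time, though only -0.01 for *gld1*. In wild type 66 of 5118 genes had an adjusted p under 0.05 (1.29%), among them 7 of the 12, and no difference between the responses of these 12 had an adjusted p under 0.05. *fio1* gave 1.03 ± 0.15 in wild type and *ctt1* -1.18 ± 0.21, with differences of 0.05 ± 0.18 and -0.03 ± 0.26. *fip1* stood at 179 and 215 CPM in glucose against 611 and 279 CPM in sucrose in wild type, where wild type pair 1 changed far more than wild type pair 2 (1.07 ± 0.23, adjusted p = 0.057), and the difference was 0.02 ± 0.28. *gst2* gave -1.99 ± 0.33 in wild type (adjusted p = 0.018) and a difference of 0.66 ± 0.40. *shu1* gave 4.02 ± 0.49 in wild type, with levels of 1.59 and 0.401 CPM in glucose against 32.3 and 1.11 CPM in sucrose. The 32.3 CPM is from wild type pair 1, which was unstranded like mutant pair 1. The difference for *shu1*, -2.66 ± 0.58, was not called (adjusted p = 0.2). The median of the iron uptake list was 0.69 in wild type and 0.75 in the mutants. By pair it was 1.11 and 0.19 in wild type pairs 1 and 2, and 0.93, 0.66, 0.83 and 0.41 in mutant pairs 1 to 4. With standard errors of this size, a missed threshold does not show that the responses were alike.

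**Figure D4:**
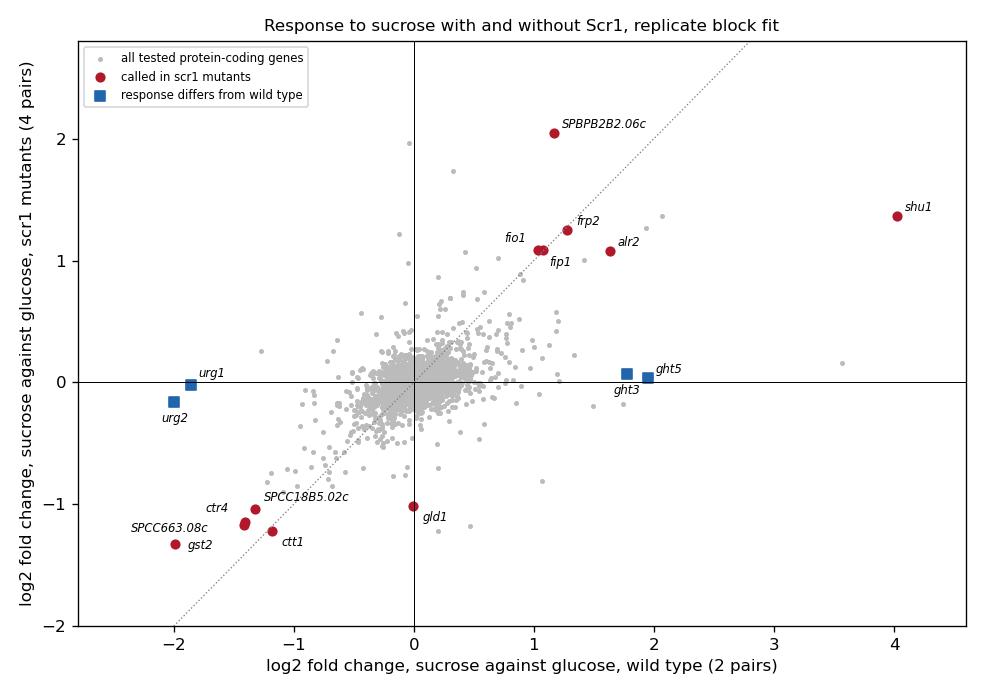
Log2 fold change of sucrose over glucose in wild type (horizontal, 2 pairs) and in *scr1* mutants (vertical, 4 pairs) for the 5118 protein-coding genes tested with the replicate block, with the dotted line marking equal values. *fio1* (1.03 and 1.09) and *ctt1* (-1.18 and -1.22) lie near that line, and *ght5* (1.95 and 0.04) and *urg1* (-1.85 and -0.02) lie far from it.

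Other groups of carbon and energy metabolism had no called gene in the mutants by edgeR with the block. Over all protein-coding genes tested, 357 of 5118 had an unadjusted p under 0.05 in that fit. Of 13 glycolysis genes 1 had an unadjusted p under 0.05 and the median was 0.05, with the phosphofructokinase gene *pfk1* at 0.12 ± 0.05. Of 8 fermentation genes 2 did (median -0.03), with the pyruvate decarboxylase gene *pdc202* at -0.23 ± 0.09. Of 8 pentose phosphate genes 1 did (median -0.05), with the phosphogluconate dehydrogenase gene *gnd1* at -0.19 ± 0.07. The 4 galactose genes had a median of 0.06 in the mutants and 0.75 in wild type, where 2 rose, with *gal7* at 0.15 ± 0.07 in the mutants. Of 14 regulators of carbon repression 1 had an unadjusted p under 0.05 (median -0.06), with the activator gene *rst2* at 0.06 ± 0.07 and the G protein gene *gpa2* at -0.22 ± 0.07. Of 131 cytoplasmic ribosomal protein genes 6 did (median -0.01), with *rpl3703* at -0.15 ± 0.05. Of 5 genes of fructose 2,6-bisphosphate turnover and gluconeogenesis 0 did (median -0.02), with the phosphatase gene *fpb26* at -0.08 ± 0.05. In the list of nitrogen and amino acid uptake, *amt1*, for an ammonium transporter, fell by 0.53 on the log2 scale (SE 0.09, adjusted p = 0.034), and the other 10 genes were not called.

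Lists outside carbon metabolism with no called gene in the mutants are given by the member with the lowest p in the 16-library fit. The acid phosphatase gene *pho1*, of 6 phosphate genes, gave 0.54 ± 0.15 (adjusted p = 0.25). *mfm3*, for a mating pheromone precursor, of 17 genes of sexual differentiation, gave -0.44 ± 0.26. *thi2*, of 6 thiamine and pyridoxine genes, gave 0.05 ± 0.05, and *urg3*, of 4 uracil-regulated genes, gave -0.07 ± 0.08 in the mutants and -0.84 ± 0.12 in wild type. *ssd2*, for succinate-semialdehyde dehydrogenase, gave -0.26 ± 0.17, and *ade6*, of the strain marker genes, gave 0.05 ± 0.06.

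Of 103 tested protein-coding genes matched from the study's list of Scr1 binding in ChIP-seq, 3 rose more than 2-fold (*alr2*, *fip1* and *fio1*), 1 fell (*gld1*), and the median was 0.01. Over all protein-coding genes tested, 0.117% rose and 0.117% fell more than 2-fold. *fip1* and *fio1* are divergent neighbours with a shared upstream interval, so they may not be separate observations of binding. Of 85 genes matched from the study's list of Scr1 regulation, which may not be its whole list and was drawn from these samples, so that it is no independent evidence, *gld1* alone changed more than 2-fold and the median was 0.02.

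The response of the disruption and that of the deletion were also compared. For 0 of 5118 protein-coding genes was a difference called by edgeR with the block (0.0%), with 76 at an unadjusted p under 0.05, and DESeq2 with batch called 0, with 11 at an unadjusted p under 0.05. *fip1* gave 1.09 in the disruption and 1.09 in the deletion, *fio1* 1.16 and 1.02, and *gld1* -0.94 and -1.09. *alr2* gave 1.37 and 0.54. Of the non-coding features 4 were lower in the disruption's response than in the deletion's. No library batch holds both alleles, so allele and batch cannot be told apart.

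Among non-coding features, 11 of 1532 were higher in sucrose with the replicate block (0.718%) and 0 were lower by more than 2-fold, with 165 at an unadjusted p under 0.05. With no fold minimum 19 were higher (1.24%). The 16-library edgeR fit and DESeq2 with batch called 0, with 42 and 43 at an unadjusted p under 0.05. Of the 11 features 10 are ribosomal RNA genes, several of them near-identical copies that cannot be counted as separate observations. SPRRNA.50 stood at 58, 74.8, 69.6 and 102 CPM with glucose and 86.4, 208, 208 and 159 CPM with sucrose and rose by 1.07 on the log2 scale (SE 0.16, adjusted p = 0.019). The mitochondrial SPRRNA.02 stood at 1, 0.791, 0.59 and 0.208 CPM with glucose and 2, 2.81, 3.47 and 1.89 CPM with sucrose and rose by 1.93 on the log2 scale (SE 0.30, adjusted p = 0.019). The ribosomal RNA share of the libraries moved with these values, and its part in them was not tested. In wild type the share was lower in sucrose in each pair, at 1.08% against 0.997% and 0.942% against 0.721%. Wild type gave -0.11 ± 0.23 for SPRRNA.50 and 0.71 ± 0.39 for SPRRNA.02. The differences between the responses were not called by edgeR with the block (adjusted p = 0.22 and 0.89). In the mutants the mitochondrially encoded genes moved with the ribosomal RNA features too. Of the 11 in that list 5 were tested, and all 5 were higher in sucrose in all 4 pairs. That pattern was shown by 7.33% of protein-coding genes. The sucrose and glucose groups did not overlap for 1 of the 5. In that list 0 were called, 4 had an unadjusted p under 0.05, and the median was 1.22 in the mutants and 0.20 in wild type. By pair the median was 0.38 and 0.50 in disruption pairs 1 and 2. It was higher in both deletion pairs, up to 1.78 in pair 3. In wild type pairs 1 and 2 it was 0.83 and -0.38. Levels were low, as for SPMIT.11, at 0.0655 to 0.791 CPM in glucose and 0.648 to 1.63 CPM in sucrose (1.97 ± 0.51, adjusted p = 0.18). The last of the 11 non-coding features, *srp7*, the RNA of the signal recognition particle, averaged 2.72 ± 1.27 CPM in glucose (SD, n = 4) and 5.44 ± 1.57 CPM in sucrose, and rose by 1.03 on the log2 scale (SE 0.15, adjusted p = 0.019). In wild type *srp7* gave -0.16 ± 0.21, and the difference of 1.18 ± 0.26 was not called (adjusted p = 0.2).

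The non-coding RNAs *meu3* and *meu19*, at opposite ends of chromosome III and named after their values were seen, moved in opposite directions in mutants and wild type. *meu3* stood at 26.1, 39.4, 37.7 and 29.1 CPM with glucose and 17, 29.8, 24.6 and 16.1 CPM with sucrose in the mutants and fell by 0.61 on the log2 scale (SE 0.09, adjusted p = 0.019), whereas wild type, at 3.91 and 6.77 CPM in glucose against 7.02 and 17.6 CPM in sucrose, gave 1.15 ± 0.16. The difference was -1.77 ± 0.19 (adjusted p = 0.0025). For *meu19* it was -1.76 ± 0.19 (adjusted p = 0.0025), from nearly the same values, -0.63 in the mutants and 1.12 in wild type. Multiply mapped reads were counted at each feature, so *meu3* and *meu19* may not be separate observations. Whether they share reads was not tested.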

How the data were processed

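Raw counts for 7019 features, 5172 of them protein-coding, were deposited by the authors. Per the study's methods and the submitters' processing notes, reads were trimmed with cutadapt 1.9.1, aligned to ASM294v2 with TopHat2 2.1.1 and counted with featureCounts 1.5.2, with multiply mapped reads and reads over several features counted at each of them. Antisense and overlapping genes cannot be told apart in the unstranded libraries.

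Counts were analysed with edgeR 4.0.16 (quasi-likelihood test, TMM, a minimum count of 10, Benjamini-Hochberg adjustment over all features tested) in R 4.3.3. As designed, the first fit used all 16 libraries with batch as a covariate (6691 features tested, 8 residual degrees of freedom). The replicate block fit used the 12 glucose and sucrose libraries with a term for each pre-culture (6650 features, 4 residual degrees of freedom). The pairing rests on the methods, where each pre-culture was split between media. Deviations of the mutant libraries correlated at 0.865 to 0.985 within each of the 4 pairs, but also at 0.777 and 0.789 between the deletion pairs. Batch or strain also differed between pairs, so these correlations do not establish the pairing. DESeq2 1.42.0 was an alternative, with leaving out single libraries and pairs, other scalings, no low-count filter, stranded libraries alone and a separate sucrose term for each allele. The alternatives within the replicate block fit were chosen after seeing the data. Each edgeR script was tested on simulated data. Total counts of 14375950 to 18607823 leave genes near 1 CPM with few reads.

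The comparison, gene lists and tests were chosen with earlier results of these data known. Named were all genes of the sucrose and hexose transporter lists with *scr1* and *rst2*, up to 15 called genes in each direction (from the 16-library fit, then the block fit), the called members of every other list or its member with the lowest p in the 16-library fit, up to 10 genes whose response differed from wild type, and up to 5 non-coding features. Any other gene was named after its values were seen. Promoter windows of 300 bases came from RefSeq ASM294v3. Labels give 1 strain for both disruption replicates and 2 for the deletion.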

Additional observations from a re-analysis of the deposited data

Results flagged for a closer look

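A library stood apart from the other 3 of its group in 7 of the 106 groups of 4 mutant libraries examined, by a gap to its nearest neighbour that took up most of the whole range (Dixon's criterion), and chance does so in about 1 in 20 groups. Disruption replicate 1 was highest for *mal1* in glucose (122 CPM, next 33.9) and in sucrose (118 CPM, next 37.1), for *sut1* in glucose (46 CPM, next 29.7) and for *shu1* in sucrose (163 CPM, next 5.55). Disruption replicate 2 was highest for *gnd1* in glucose (5481 CPM, next 3559) and lowest for *rst2* in sucrose (142 CPM, next 172). Deletion replicate 1 was lowest for *scr1* in sucrose (88.8 CPM, next 109).

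The response to sucrose differed between mutants and wild type, by the edgeR test of the difference with the replicate block, for 6 features. Of these, *meu3* and *meu19* may not be separate observations. The difference in log2 fold change, mutants minus wild type, was -1.70 for *ght3* (adjusted p = 0.00065), -1.91 for *ght5* (adjusted p = 2.4e-05), 1.83 for *urg1* (adjusted p = 0.0025), 1.84 for *urg2* (adjusted p = 0.0032), -1.77 for *meu3* (adjusted p = 0.0025) and -1.76 for *meu19* (adjusted p = 0.0025).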

How the results depend on the processing

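The 16-library fit called 0 genes higher, 0 lower and 0 non-coding features in the mutants under each alternative without the replicate block, including leaving out each library in turn. With the replicate block it was 6 higher, 6 lower and 11 non-coding in 12 libraries and 8, 6 and 11 in the 8 mutant libraries. The stranded libraries hold only 1 wild type library in glucose and 1 in sucrose, so response differences are not counted there. The count of response differences was 1 in the 16-library fit, 2 in the 12 libraries with batch, 2 with DESeq2 and 4 with the replicate block. It was 0 to 1 with a mutant library left out. The count of protein-coding differences between alleles was 0 in each of these, and 4 non-coding features differed with the replicate block, in 12 and in 8 libraries.

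Within the replicate block, genes higher numbered 3 in stranded libraries and 12 with no fold minimum. With a sucrose term for each allele, in a fit of the same 12 libraries, they numbered 2 for the disruption and 1 for the deletion. Genes lower numbered 1, 21, 3 and 2 under the same alternatives. Non-coding features numbered 5 in stranded libraries, 22 with no fold minimum, and 1 for the disruption and 10 for the deletion in the fit with a term for each allele. Leaving out a pair gave 1 to 8 higher, the fewest without disruption replicate 1 (1) and deletion replicate 2 (2). It gave 0 to 8 lower, with 0 without deletion replicate 2, 1 without disruption replicate 1 and 2 without disruption replicate 2. It gave 2 to 11 non-coding features, with 2 and 3 without deletion replicates 1 and 2. Response differences numbered 8 with DESeq2, 8 in stranded libraries and 4 to 9 with a pair left out, with 9 without wild type replicate 1. The cause was not tested. For single named genes, values were compared with the fit that had batch as a covariate and no replicate block. By that comparison 0 values reversed, 14 moved, and the 12 that lost their call all concern the *ght3* difference. That difference was the only call which that fit made for the mutants, so no other could be lost. Of the 12 protein-coding genes called with the replicate block, 1 was kept with each mutant pair left out in turn. Another 7 were kept in only 1 such fit, and 1 in none. The pooled spread rests on 4 residual degrees of freedom, and most calls of more than 2-fold depend on which pairs are included.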
